A study of Mus musculus with 6 samples.

Results

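Collagen cross-linking and hydroxylase enzymes were examined in cultured mouse aortic smooth muscle cells as 10 genes chosen by name: the lysyl oxidases Lox, Loxl1, Loxl2, Loxl3 and Loxl4, the lysyl hydroxylases Plod1, Plod2 and Plod3, and the prolyl 4-hydroxylase alpha subunits P4ha1 and P4ha2. All 10 symbols matched 1 row each among the 25939 genes listed, and all 10 passed the filter on low values that left 11062 genes for testing. RNA was sequenced from cells treated with trimethylamine N-oxide (TMAO), which the liver forms out of trimethylamine from gut bacteria, and from control cells after 48 h, with 3 libraries in each group. The sources used here give neither the dose nor the strain, age and sex of the mice, nor whether the 3 libraries of a group came from separate animals or cultures, so p-values measure only the spread between these libraries, which may be technical. Levels are in FPKM, fragments per length of exon and sequencing depth, a scale that allows levels of different genes to be compared. Log2 ratios are of TMAO over Control on the scale log2(FPKM + 1), where the change of low genes is understated.

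Collagen chains are modified in the endoplasmic reticulum before they fold. Prolyl 4-hydroxylase, built from an alpha subunit and protein disulfide isomerase (P4hb), hydroxylates prolines and so makes the triple helix stable at body temperature, while lysyl hydroxylases hydroxylate lysines that later carry sugars or form cross-links, and these hydroxylases need iron, 2-oxoglutarate and ascorbate. After secretion, lysyl oxidases, which are copper enzymes, oxidise lysines and hydroxylysines of collagen and lysines of elastin to aldehydes that join neighbouring molecules, a step on which the strength of the aortic wall depends.

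None of the 10 genes passed the threshold over all genes (limma on log2(FPKM + 1), adjusted p of 0.05), where 20 of 11062 genes did (0.181%). The lysyl oxidase genes Loxl1 and Loxl4 and the lysyl hydroxylase genes Plod1 and Plod3 had every TMAO library below every Control library, with differences between group means of -14.5% (Loxl1), -21.2% (Loxl4), -17.8% (Plod1) and -19.8% (Plod3). This separation was seen in 4 of the 10 genes against 6.23% of all genes tested, and 0 of the 10 had every TMAO library above every Control library, against 12.4%. Lox, the most abundant member, and the prolyl hydroxylase subunits P4ha1 and P4ha2 had differences between group means of -3.83%, 0.743% and -3.71%, and Plod2 was 4.94% higher in TMAO. The log2 ratio was below 0 for 8 of the 10 genes, with a median of -0.15, and below 0 for 40% of all genes, with a median of 0.02. These shares shift with the scaling of the libraries: with median-ratio size factors 9 members and 53.6% of all genes were below 0, and the TMAO libraries lay below all Control libraries for 5 members (Loxl3 joining the 4) and 10.7% of all genes. With quantile normalization the counts were 9 members and 51.0% of all genes below 0, and 4 members and 10.3% of all genes without overlap. With voom on reads recovered from the FPKM values, Loxl1 and Plod1 passed with lower TMAO levels (limma adjusted p = 0.0305 and 0.0275), where 90 of 11058 genes passed. For each of them this was 1 of 15 alternatives, and neither passed in any other. In RNA from a whole culture, fewer cells of a type and less RNA per cell cannot be told apart.

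Other properties of the libraries were measured, and their part in these results was not tested. The nuclear RNA Malat1 stood at 75.0 to 113 FPKM in Control and 153 to 218 FPKM in TMAO. Mitochondrial transcripts took 7.23% to 7.84% of reads in Control and 6.36% to 6.65% in TMAO. Of 8 smooth muscle markers 4 were tested. Sums here are over all markers of a list, tested or not. The smooth muscle sum was 592 to 597 FPKM in Control and 577 to 596 FPKM in TMAO. Smooth muscle actin (Acta2) made up most of that sum, and Tagln, Cnn1, Myh11 and Myocd lay below 1 FPKM in all 6 libraries. Fibroblast markers summed to 451 to 493 and 452 to 485 FPKM, with 7 of 8 tested, and macrophage markers to 78.9 to 97.7 and 76.1 to 83.9 FPKM, with 3 of 7 tested. Most of the fibroblast sum was Ly6a, at 388 to 429 FPKM in Control and 389 to 426 FPKM in TMAO. Of the tested fibroblast markers 4 had log2 ratios below 0 and 3 above, and 0 passed the threshold. Most of the macrophage sum was Lyz2, while Ptprc, Itgam, Adgre1 and Csf1r lay below 1 FPKM in all 6 libraries. Of 6 endothelial markers only endomucin (Emcn) was tested. The endothelial sum was 15.5 to 16.8 FPKM in Control and 12.5 to 13.1 FPKM in TMAO, almost all of it Emcn (limma adjusted p = 0.0504, below the threshold in 5 of 15 alternatives, voom on recovered reads among them), while the defining genes Pecam1 and Cdh5 stayed at or below 0.0964 FPKM in every library.

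Levels spanned about 2 orders of magnitude, from Lox at a Control mean of 482 FPKM to Loxl2 at 4.15 FPKM. Lox was higher than 98.9% of the tested genes in Control and made up 62.0% to 64.1% of the summed FPKM of the 10 genes in each library. In falling order of the Control mean came Lox, P4ha1, Loxl1, Loxl3, Plod2, Plod3, Plod1, P4ha2, Loxl4 and Loxl2. Most neighbours in this order kept it in 6 of 6 libraries. The exceptions were Loxl3 and Plod2, which kept it in 2 of 6 libraries, and Loxl4 and Loxl2, which kept it in 3 of 6. Plod1 exceeded P4ha2 in 6 of 6 libraries although their ranges over the libraries overlapped. Reads behind the values ran from 217 for Loxl4 in TMAO 3 to 39031 for Lox in TMAO 1.

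**Figure D1:**
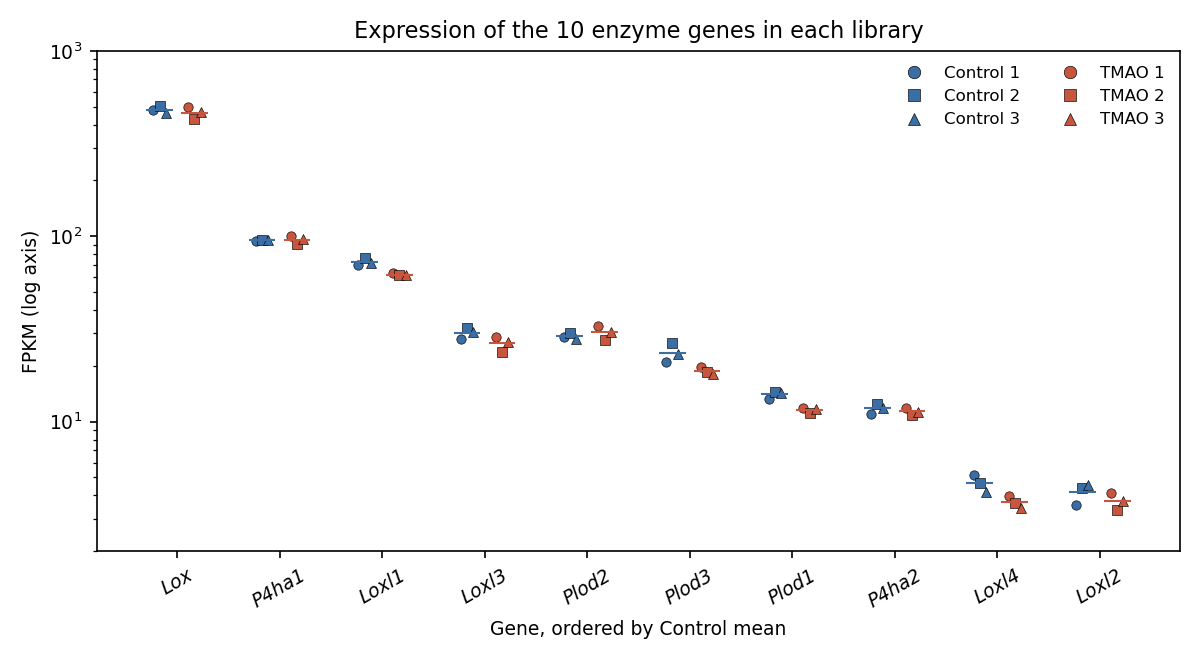
FPKM (log axis) of the 10 genes in each of 6 libraries, ordered by Control mean, with blue for Control, red for TMAO, marker shape for the replicate number and a short line for the group mean. Lox stands far above the rest at about 482 FPKM, and Loxl4 and Loxl2 are the lowest, near 4 FPKM.

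Among the lysyl oxidases, Lox and Loxl1 are the pair with a propeptide that is cut off outside the cell, and Loxl2, Loxl3 and Loxl4 carry scavenger receptor domains instead. Lox (ENSMUSG00000024529, chromosome 18) stood at 478.6, 504.3 and 461.8 FPKM in Control 1 to 3, and for TMAO 1 to 3 at 494.3, 429.3 and 465.7 FPKM. The groups overlapped throughout, and TMAO 1 lay above 2 of the 3 Control libraries. The log2 ratio of Lox was -0.06 ± 0.057 (SE, limma adjusted p = 0.726), with a 95% interval from -0.18 to 0.07. Its 32721 to 39031 reads put the counting error at 0.553% or less, so the SD of 4.44% between Control libraries was far above it. Counting errors here treat each read as an independent molecule.

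Loxl1 (ENSMUSG00000032334, chromosome 9, 58287738 to 58313186 of mm10, minus strand), an oxidase tied to elastic fibres through its binding to fibulin-5, stood at 69.7, 76.5 and 71.6 FPKM in Control and at 63.2, 61.7 and 61.4 FPKM in TMAO. The TMAO libraries lay close together and below all Control libraries, and Control 2 stood highest. The group means were 72.6 ± 3.51 and 62.1 ± 0.961 FPKM (SD, n = 3). Loxl1 had the smallest p of the members, ranked 74 of 11062 genes, and its log2 ratio of -0.22 ± 0.047 had a limma adjusted p = 0.101. In 1 of 15 alternatives, voom on recovered reads, Loxl1 passed the threshold, and over all of them its limma adjusted p ran from 0.0305 to 0.426.

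Loxl4 (ENSMUSG00000025185, chromosome 19, 42593982 to 42612813, minus strand), a further collagen oxidase, was low, at 5.14, 4.66 and 4.18 FPKM in Control and 3.95, 3.63 and 3.44 FPKM in TMAO. Control 3, the lowest Control library, lay only a little above TMAO 1, the highest TMAO library. The log2 ratio was -0.27 ± 0.083 (limma adjusted p = 0.207) on a scale that understates the change of low genes, and -0.33 with voom on recovered reads (limma adjusted p = 0.135). With 217 to 325 reads per library, counting alone gives an error of up to 6.79%, against a spread of 10.3% between Control libraries.

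Loxl3 (ENSMUSG00000000693, chromosome 6, 83034173 to 83052562, plus strand), which oxidises collagen and fibronectin, stood at 28.0, 32.0 and 30.3 FPKM in Control and 28.6, 23.7 and 27.0 FPKM in TMAO. TMAO 1 lay above Control 1, so the groups overlapped. Its log2 ratio was -0.18 ± 0.073 (limma adjusted p = 0.333), which became -0.11 without TMAO replicate 2 and -0.24 without TMAO replicate 1. Exons of Htra2 on the opposite strand cover 11.6% of its exon bases, and no source used here gives the strand setting of the counting, so reads of the pair cannot be told apart with certainty. Htra2 averaged 9.52 ± 0.301 and 9.67 ± 0.933 FPKM in Control and TMAO.

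Loxl2 (ENSMUSG00000034205, chromosome 14, 69609068 to 69695834, plus strand), which cross-links the collagen IV of basement membranes, had the widest Control spread of the members at 12.5% of its mean. It stood at 3.56, 4.37 and 4.52 FPKM in Control and 4.10, 3.33 and 3.74 FPKM in TMAO. The groups overlapped, with Control 1 below 2 of the 3 TMAO libraries. Its log2 ratio was -0.12 ± 0.094 (limma adjusted p = 0.627), and counting error reached 5.90% at 287 reads. Exons of Gm27177 on the opposite strand cover 5.57% of its exon bases, and that gene had at most 0.0701 FPKM in any library.

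Among the lysyl hydroxylases, Plod1 (ENSMUSG00000019055, chromosome 4, 147909753 to 147936767, minus strand), which hydroxylates lysines within the triple helix, stood at 13.3, 14.5 and 14.3 FPKM in Control and 11.9, 11.1 and 11.7 FPKM in TMAO. All TMAO libraries lay below all Control libraries, and the gap between the groups was wider than the range within either group. The log2 ratio of Plod1 was -0.26 ± 0.058 (limma adjusted p = 0.114, rank 95 of 11062 by p). It passed with voom on recovered reads and in none of the other 14 alternatives, with limma adjusted p from 0.0275 to 0.428 over all of them.

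Plod3 (ENSMUSG00000004846, chromosome 5, 136987019 to 136996648, plus strand), which also adds glucose and galactose to hydroxylysine, stood at 20.8, 26.5 and 23.1 FPKM in Control and 19.8, 18.5 and 18.1 FPKM in TMAO. The SD of the Control libraries was 12.1% of their mean, with Control 2 high, and Control 1 was only a little above TMAO 1. Plod3 had the most negative log2 ratio of the members, -0.30 ± 0.079 (limma adjusted p = 0.166), which became -0.21 without Control replicate 2 and -0.38 without Control replicate 1. Exons of Znhit1 on the opposite strand cover 11.7% of its exon bases, and how many reads the pair shares was not measured. Znhit1 averaged 15.9 ± 0.709 and 16.5 ± 0.728 FPKM in Control and TMAO.

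Plod2 (ENSMUSG00000032374, chromosome 9, 92542223 to 92608428, plus strand), which hydroxylates the telopeptide lysines that give the hydroxyallysine type of cross-link, stood at 28.4, 30.1 and 28.0 FPKM in Control and 32.9, 27.5 and 30.5 FPKM in TMAO. TMAO 1 and 3 lay above all Control libraries and TMAO 2 below them. The log2 ratio was 0.06 ± 0.065 (limma adjusted p = 0.734), with a 95% interval from -0.08 to 0.21. Exons of Gm38391 on the opposite strand cover 6.42% of its exon bases, at 0.254 and 0.293 FPKM in the groups.

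A ratio of genes within a library does not depend on its depth. The ratio of Plod2 to Plod1 FPKM was 2.14, 2.08 and 1.96 in Control and 2.77, 2.48 and 2.62 in TMAO, each in order of replicate number, without overlap. The ratio of Plod2 to Plod3 was 1.36, 1.14 and 1.22 in Control and 1.66, 1.49 and 1.68 in TMAO, again without overlap. Plod1 and Plod3 themselves had every TMAO library below every Control library. The ratio of P4ha1 to Plod1 was 7.11, 6.59 and 6.65 in Control and 8.44, 8.14 and 8.32 in TMAO, also without overlap. The separation was therefore not particular to Plod2. These ratios were chosen after the values were seen and are given as a description, with no test.

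The prolyl 4-hydroxylase subunits had overlapping groups. P4ha1 (ENSMUSG00000019916, chromosome 10, 59323296 to 59373304, plus strand), the most abundant alpha subunit, stood at 94.62, 95.63 and 95.05 FPKM in Control and 100.3, 90.2 and 96.9 FPKM in TMAO. The Control libraries had an SD of 0.535% of their mean, less than the counting error of up to 1.31%, and the TMAO libraries, with an SD of 5.39% of their mean, lay on either side of them. The log2 ratio was 0.01 ± 0.047 (limma adjusted p = 0.959, 95% interval -0.10 to 0.11).

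P4ha2 (ENSMUSG00000018906, chromosome 11, 54100095 to 54131665, plus strand), a less abundant alpha subunit, stood at 11.0, 12.4 and 11.9 FPKM in Control and 11.8, 10.9 and 11.3 FPKM in TMAO. TMAO 1 lay within the Control range, and the log2 ratio was -0.05 ± 0.062 (limma adjusted p = 0.787, 95% interval -0.19 to 0.09). P4ha1 exceeded P4ha2 by a factor of 8.09 ± 0.444 in Control and 8.45 ± 0.165 in TMAO (SD, n = 3). A further alpha subunit gene, P4ha3, is not among the members and was counted with the collagen folding partners below. It averaged 8.25 and 7.42 FPKM in Control and TMAO, with overlapping groups (log2 ratio -0.13, limma adjusted p = 0.459).

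**Figure D2:**
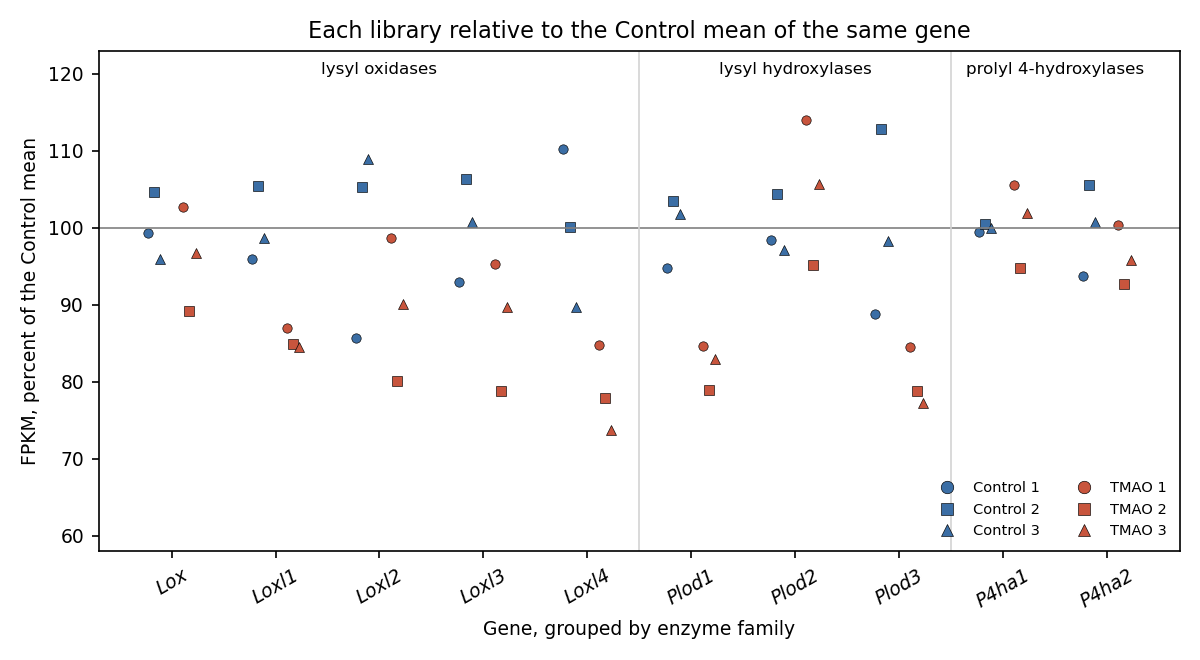
FPKM of each library as a percent of the Control mean of the same gene, with blue for Control, red for TMAO and marker shape for the replicate number; the vertical axis does not start at 0. The red points of Loxl1, Loxl4, Plod1 and Plod3 lie below all blue points, while those of the other 6 genes overlap them or lie on either side.

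Within the TMAO group, TMAO 1 was the highest library for 10 of 10 genes, and TMAO 2 the lowest for 7. TMAO 1 was also the highest of its group for 50.7% of all genes tested, and TMAO 2 the lowest for 45.9%. Within Control, Control 2 was the highest library for 8 of the 10 genes, against 41.7% of all genes.

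**Figure D3:**
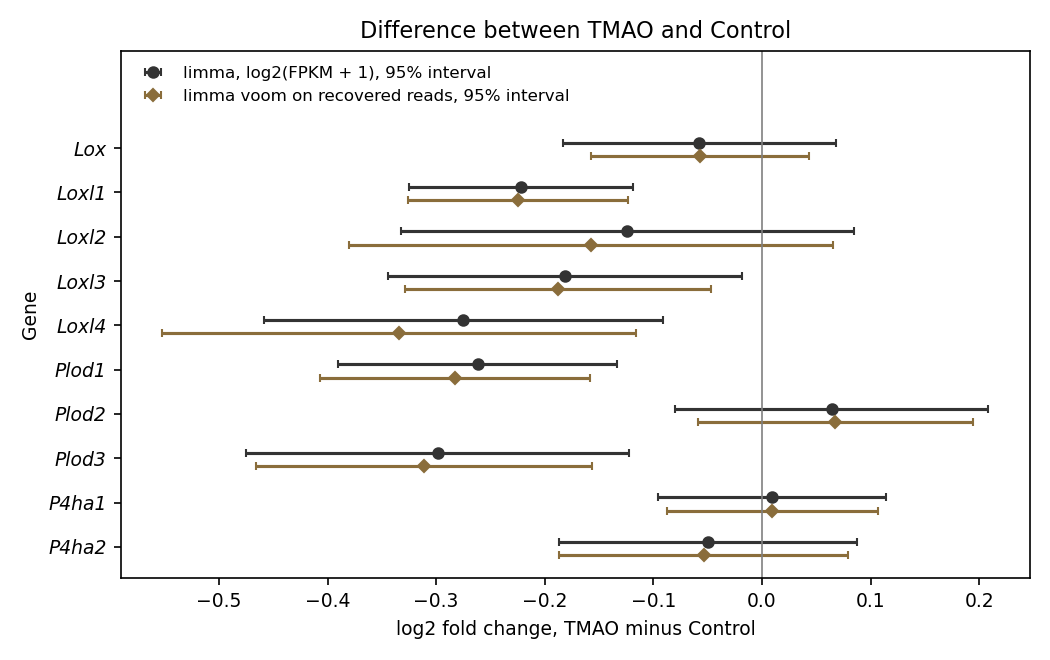
Log2 ratio (fold change) of TMAO minus Control for the 10 genes, from limma on log2(FPKM + 1) (circles) and from limma voom on recovered reads (diamonds), each with its 95% interval before adjustment. Loxl1, Loxl3, Loxl4, Plod1 and Plod3 have intervals below 0 by limma on log2(FPKM + 1), and none of them passes after adjustment over all genes on that scale.

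Unadjusted p-values below 0.05 with a lower TMAO level were found for 5 of the 10 genes, the 4 named above and Loxl3, against 4.48% of all genes. Summed over a family, the lysyl oxidases averaged 593 ± 25.7 and 559 ± 36.3 FPKM in Control and TMAO, a sum of which Lox made up 80.7% to 83.2%. The lysyl hydroxylases summed to 66.4 ± 4.36 and 60.6 ± 3.79 FPKM, and the prolyl hydroxylase subunits P4ha1 and P4ha2 to 107 ± 1.20 and 107 ± 5.60 FPKM. The sums of the groups overlapped in all 3 families.

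Promoter sequences from RefSeq (GRCm38.p6, the mm10 assembly) matched 5 of the 10 genes, and 4 are shown. Of the matched genes, Loxl4, Plod1 and Plod3 had TMAO libraries below all Control libraries, while P4ha1 and P4ha2 did not. Each line gives the 250 bases before the start that RefSeq gives, 5′ to 3′ on the gene's strand. Capitals mark matches on either strand to the ACGTG form of the hypoxia response core, the GC box GGGCGG and the TATA box TATAAA. Gene coordinates above are those of GENCODE M21, by which the P4ha2 window lies inside the gene, since that annotation starts P4ha2 further upstream. The Plod3 window was searched but is not printed, as it holds untranslated exon sequence of Znhit1 on the opposite strand.
Loxl4, chr19:42612807-42613056, minus strand: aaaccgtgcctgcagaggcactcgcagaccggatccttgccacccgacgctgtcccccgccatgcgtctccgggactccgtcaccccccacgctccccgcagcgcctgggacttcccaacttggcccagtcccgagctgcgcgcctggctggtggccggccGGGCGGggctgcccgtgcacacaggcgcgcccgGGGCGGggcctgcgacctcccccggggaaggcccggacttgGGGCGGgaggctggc
Plod1, chr4:147936777-147937026, minus strand: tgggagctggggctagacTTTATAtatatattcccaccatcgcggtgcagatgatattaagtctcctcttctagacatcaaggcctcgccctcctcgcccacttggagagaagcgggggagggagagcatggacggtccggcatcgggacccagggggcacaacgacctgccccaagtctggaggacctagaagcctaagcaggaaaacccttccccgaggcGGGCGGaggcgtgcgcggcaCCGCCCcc
P4ha1, chr10:59323046-59323295, plus strand: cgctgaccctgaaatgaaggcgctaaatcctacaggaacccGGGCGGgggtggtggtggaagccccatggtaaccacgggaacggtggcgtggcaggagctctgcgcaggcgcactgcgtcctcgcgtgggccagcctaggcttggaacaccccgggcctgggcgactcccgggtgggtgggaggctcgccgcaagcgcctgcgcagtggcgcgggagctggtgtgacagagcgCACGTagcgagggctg
P4ha2, chr11:54100674-54100923, plus strand: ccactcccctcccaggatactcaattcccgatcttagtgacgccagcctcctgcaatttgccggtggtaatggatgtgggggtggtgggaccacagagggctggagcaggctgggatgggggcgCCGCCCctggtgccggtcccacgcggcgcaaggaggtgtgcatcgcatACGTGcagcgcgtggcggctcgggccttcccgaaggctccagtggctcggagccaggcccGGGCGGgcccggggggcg
The ACGTG core occurred in P4ha1, P4ha2 and Plod3, 3 of 5 windows, against 16.6% of the 32851 windows of the same length in the table. GGGCGG occurred in the windows of Loxl4, P4ha1, P4ha2 and Plod1, against 32.7% of all windows, and TATAAA in that of Plod1, against 12.4%. Guanine and cytosine made up 55.6% of the Plod3 window and 76.0% of the Loxl4 window. Among the genes whose windows hold ACGTG, Plod3 had TMAO libraries below all Control libraries, and P4ha1 and P4ha2 did not. Loxl4 and Plod1, whose windows lack ACGTG, had TMAO libraries below all Control libraries too. A link between motif and level was not tested. A match is a description of the letters and not of a bound site.

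The genes that act with these enzymes were counted from lists chosen by name, first with limma on log2(FPKM + 1). With voom on recovered reads the only call in the 7 lists described here was Vegfa. Of 17 collagen folding partners 15 were tested and 0 passed (6 with an unadjusted p below 0.05 in either direction, against 13.1% of all genes), with 11 log2 ratios below 0 and a median of -0.08. Cyclophilin B (Ppib), a prolyl isomerase that works with the prolyl 3-hydroxylase complex, stood at 43.2, 43.2 and 43.8 FPKM in Control and 50.9, 48.2 and 50.8 FPKM in TMAO (log2 ratio 0.20, limma adjusted p = 0.114). Its partner in that complex, the prolyl 3-hydroxylase gene P3h1, stood at 15.8, 16.0 and 15.1 FPKM in Control and 13.9, 12.2 and 14.0 FPKM in TMAO (-0.21, limma adjusted p = 0.207). Ppib and P3h1 thus lay on opposite sides of Control, each without overlap, and neither passed the threshold. Crtap (-0.08, limma adjusted p = 0.454), Fkbp9 and Fkbp10 (-0.17, limma adjusted p = 0.285) also had every TMAO library below every Control library. With P3h1 this made 4 of the 15 tested, and Ppib alone had every TMAO library above. Of all genes tested, 6.23% had every TMAO library below every Control library and 12.4% above. The peptidyl-prolyl isomerase gene Fkbp9 had -0.20 and P3h4, which supports lysyl hydroxylation, -0.16 (limma adjusted p = 0.207 and 0.280). P4hb, the beta subunit shared by P4ha1 and P4ha2, averaged 414 and 421 FPKM in Control and TMAO (0.02, limma adjusted p = 0.877).

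In the list of procollagen processing enzymes 7 of 9 genes were tested and 0 passed (2 with an unadjusted p below 0.05). The N-proteinase gene Adamts2 (log2 ratio -0.20, limma adjusted p = 0.250) and the enhancer Pcolce (-0.12, limma adjusted p = 0.316) had every TMAO library below every Control library. Bmp1, whose product removes the propeptide of Lox, stood at 12.3, 14.6 and 13.4 FPKM in Control and 16.4, 11.3 and 13.8 FPKM in TMAO (0.02, limma adjusted p = 0.961). The Bmp1 relative Tll1 had -0.13 and periostin (Postn), a matrix protein that binds Bmp1, -0.07 (limma adjusted p = 0.668 and 0.674). In the procollagen export list 8 of 8 genes were tested and 0 passed (0 with an unadjusted p below 0.05), with a median of 0.01. The transcription factor gene Creb3l1 had -0.15, the coat protein gene Sec13 0.08, Klhl12 0.13 and Sec23a 0.06 (limma adjusted p = 0.419, 0.435, 0.610 and 0.679).

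Of 9 genes for substrates of cross-linking and their assembly factors, 9 were tested and 0 passed (5 with an unadjusted p below 0.05). Col3a1, Col1a1 and Col1a2, the major fibrillar collagen chains, lay at log2 ratios of -0.19, -0.18 and -0.20 (adjusted p by limma = 0.277, 0.306 and 0.318), and the minor chain Col5a3 had 0.24 (0.338). Of the 9 genes, 2 (Col1a1 and Col1a2) had every TMAO library below every Control library, against 6.23% of all genes tested. For 1 (Fbln5) every TMAO library lay above, against 12.4%. The ratio of Loxl1 to Col1a1 was 0.398, 0.371 and 0.411 in Control and 0.369, 0.396 and 0.379 in TMAO, so the groups overlapped. A ratio of Loxl1 to elastin was not calculated. Fbln5, the gene of fibulin-5, stood at 26.8, 27.1 and 25.5 FPKM in Control and 29.9, 28.0 and 28.1 FPKM in TMAO. Its TMAO libraries lay above all Control libraries (log2 ratio 0.11, limma adjusted p = 0.380). The elastin gene Eln was low, at 1.85, 2.56 and 2.01 FPKM in Control and 2.64, 2.31 and 2.31 FPKM in TMAO (0.13, limma adjusted p = 0.622). Lox was at 185 to 259 times the FPKM of Eln in the 6 libraries.

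Of 7 genes for the supply of copper and ascorbate, 5 were tested and 0 passed (1 with an unadjusted p below 0.05), with 4 log2 ratios above 0. The copper importer gene Slc31a1 stood at 14.3, 14.3 and 14.3 FPKM in Control and 16.1, 15.0 and 16.1 FPKM in TMAO (0.13, limma adjusted p = 0.335). Atp7a, the pump that loads copper onto lysyl oxidases in the secretory pathway, had 0.16, the ascorbate transporter gene Slc23a2 0.14 and Slc31a2 -0.08 (limma adjusted p = 0.673, 0.633 and 0.548). In the TGF-beta list 12 of 13 genes were tested and 0 passed (0 with an unadjusted p below 0.05), with a median of 0.06. Tgfbi, Ccn2 and Skil, targets of the pathway, had 0.17, 0.10 and 0.14 and the ligand Tgfb1 -0.12 (limma adjusted p = 0.394, 0.467, 0.493 and 0.566).

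In the hypoxia response list, included because P4ha1, P4ha2, Plod2 and Lox are known targets of hypoxia-inducible factor, 18 of 20 genes were tested and 0 passed (4 with an unadjusted p below 0.05). Vegfa, an angiogenic growth factor, stood at 6.51, 7.30 and 6.44 FPKM in Control and 11.3, 8.22 and 10.2 FPKM in TMAO, without overlap. Its log2 ratio was 0.48 (limma adjusted p = 0.104), and it passed with voom on recovered reads (0.54, limma adjusted p = 0.0140) and without TMAO replicate 2 (0.60, limma adjusted p = 0.0214). Hif1a itself, the factor's regulated subunit, had -0.17, and Aldoa and Adm had 0.11 and 0.12 (limma adjusted p = 0.206, 0.279 and 0.285). Every TMAO library lay above every Control library for 4 of the 18 (Vegfa, Aldoa and Adm among them), against 12.4% of all genes. For Hif1a alone every TMAO library lay below, against 6.23% of all genes. The median of this list was 0.02, equal to that of all genes to 2 decimals.

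**Figure D4:**
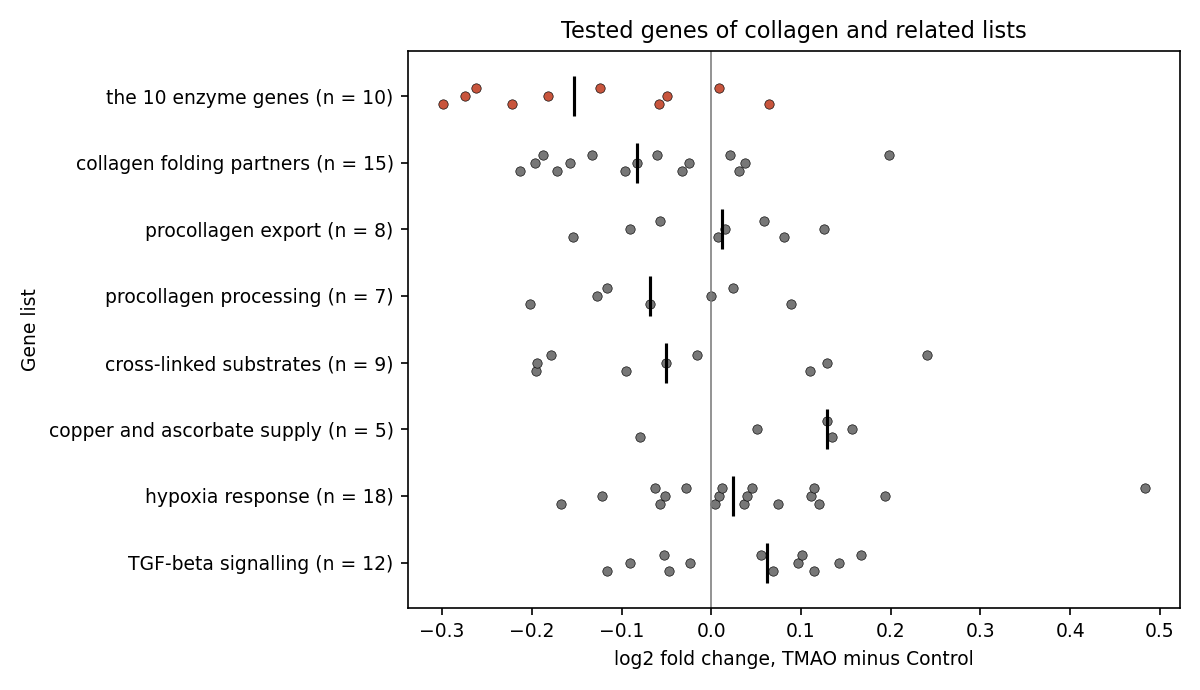
Log2 ratio (fold change) of TMAO minus Control for the tested genes of each list, with 1 point per gene and a vertical bar at the list's median. The 10 enzyme genes, in red, have a median of -0.15, and Vegfa is the far point to the right in the hypoxia response list.

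The genes most like Loxl1 over the 6 libraries were found by Pearson's r of log2(FPKM + 1), as a description with no test. These were Rtn4 (r = 0.994), Set (0.993), Igsf8 (0.991), Itgb5 (0.990) and Ahsg (0.988), and the 6 points share the 2 groups and each library's scaling. The integrin gene Itgb5 averaged 40.5 ± 2.81 and 31.6 ± 0.915 FPKM in Control and TMAO and fell (log2 ratio -0.35, limma adjusted p = 0.0487), but missed the threshold in 10 of 15 alternatives. The reticulon gene Rtn4 stood at 87.9 ± 3.36 and 74.2 ± 1.71 FPKM (-0.24, limma adjusted p = 0.0759).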

How the data were processed

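Per the file headers, each library's deposited table holds gene identifiers, symbols and FPKM values computed by the authors (the Control 1 header spells the unit PKM). Trimmomatic, HISAT2, Cufflinks, HTSeq and mm10 are named, with no versions, in the submitters' processing notes. Per the labels' protocols, library preparation used a kit that selects mRNA and keeps strand. With exon lengths from GENCODE M21 and 1 total per library, 25499 genes (98.5% of those with a length) gave whole reads within 0.01 in all 6 libraries. The totals were 14991252 to 16806728 reads.

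Testing covered genes that reached 1 FPKM in 3 or more libraries and used limma 3.58.1 (R 4.3.3, trended and robust variance, log2(FPKM + 1), two-sided), with Benjamini-Hochberg adjustment over all 11062 genes. The script was tested on simulated data. Alternatives were other scalings, filters, pseudocount and variance, a replicate block, leaving out each library, and voom on recovered reads. In each list the 4 tested genes with the smallest p were named. P4hb, Bmp1, Eln, Fbln5, Crtap and P4ha3, outside this rule, were named for their roles after their values were seen. Fkbp10, also outside it, was named because its groups did not overlap. For Loxl1, the member with the smallest p, the 5 genes most like it were named. Where 2 rows shared a symbol (Aldoa), the row with more reads was used. The members and lists were chosen with earlier results of these data known. No library repeated another (chi-square per degree of freedom 3.16 to 9.77 between replicates). Python 3.11.15, pandas 2.3.3 and matplotlib 3.10.9 prepared tables and figures.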

Additional observations from a re-analysis of the deposited data

How the results depend on the processing

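The count of members past the threshold was 0 in limma on log2(FPKM + 1) and 2 (Loxl1 and Plod1) with voom on recovered reads, and 0 in every other alternative run, the fits that left out 1 library included. The count over all genes was 20 and became 0 with no filter (limma, 1999 with an unadjusted p below 0.05), 50 with a filter of a mean of 5 FPKM and 90 with voom on recovered reads, and ranged from 11 to 56 when 1 library was left out: 11 without Control replicate 3, 12 without TMAO replicate 1 and 56 without TMAO replicate 2. The filter of a mean of 5 FPKM left Loxl2 and Loxl4 untested. Quantile normalization (7 higher and 18 lower) and median-ratio size factors (9 and 18) changed the split of calls from 8 higher and 12 lower. The median log2 ratio of all genes, 0.025 in the main fit, became -0.0022 and -0.0086 with these scalings, a change of sign. P4ha1 was below 0 in 3 of 15 alternatives, and the other 9 members kept their sign in every alternative that tested them. Samples with the same replicate number did not deviate together (correlations -0.09, -0.10 and 0.06). With the replicate block 22 genes passed, 12 higher and 10 lower, and 0 members. Counting error of up to 6.79% limits Loxl4 and 5.90% Loxl2.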
